A study of Mus musculus with 4 samples.

Results

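The Sonic hedgehog pathway is described here through 9 genes chosen by symbol: the ligand Shh, the receptor Ptch1, the ligand-binding proteins Hhip, Boc and Gas1, the transducer Smo and the transcription factors Gli1, Gli2 and Gli3. All 9 were found among the 20032 genes of the table. RNA was sequenced from whole olfactory bulbs of mice at postnatal day 11, on a background mixed from C57BL/6J, 129S6 and CD1. The 2 DCKO libraries came from mice with floxed alleles of 2 zinc finger transcription factors (Sp8 Flox/Flox and Sp9 Flox/Flox) and the Dlx5/6-CIE transgene, which is to remove both. The 2 control libraries came from littermates that lacked Cre, and the labels do not give their floxed alleles. Dlx5/6-CIE drives Cre recombinase from a Dlx5/6 enhancer that is active in the precursors of GABAergic interneurons, and cells outside that lineage are not meant to recombine. The labels do not say whether the libraries of a genotype came from separate animals, and the p-values measure only the spread between these samples, which may be technical.

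Hedgehog ligands bind the receptor Patched on the receiving cell, which then stops holding back the membrane protein Smoothened. Smoothened acts at the primary cilium and changes how the Gli factors are processed: Gli2 is mainly an activator, Gli3 mainly a repressor, and Gli1 an activator that is itself a target of the pathway. Ptch1 and Hhip are also targets and dampen the signal, so the levels of Gli1, Ptch1 and Hhip are commonly read as pathway output. In the postnatal forebrain the pathway is known for its part in neural stem cells of the ventricular-subventricular zone, which supply the bulb with interneurons, and in mature astrocytes, some of which express Gli1.

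Promoter sequences are given for Smo, Gli2 and Gli3 because these 3 had the largest log2 changes among the members with a matched promoter. Each sequence is the 250 bases before the gene's start in RefSeq (GRCm38.p6), written 5′ to 3′ on the gene's strand, and capitals mark the GC box GGGCGG, the core site of Sp family factors, on either strand. RefSeq promoter entries were matched for 6 of the 9 genes, and not for Shh, Gli1 and Boc. The Gli3 window lies between exons of longer Gli3 models that start further upstream.
Smo, chr6:29735247-29735496, + strand: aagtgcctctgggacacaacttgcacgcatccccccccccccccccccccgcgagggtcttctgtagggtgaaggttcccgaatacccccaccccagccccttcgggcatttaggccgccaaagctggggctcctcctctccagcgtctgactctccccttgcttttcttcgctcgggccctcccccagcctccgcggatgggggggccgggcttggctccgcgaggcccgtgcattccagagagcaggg
Gli2, chr1:119053620-119053869, - strand: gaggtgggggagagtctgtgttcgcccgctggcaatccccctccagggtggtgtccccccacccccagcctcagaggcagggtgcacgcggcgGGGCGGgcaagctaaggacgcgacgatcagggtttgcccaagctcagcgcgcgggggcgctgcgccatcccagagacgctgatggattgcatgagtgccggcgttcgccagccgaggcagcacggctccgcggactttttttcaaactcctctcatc
Gli3, chr13:15463473-15463722, + strand: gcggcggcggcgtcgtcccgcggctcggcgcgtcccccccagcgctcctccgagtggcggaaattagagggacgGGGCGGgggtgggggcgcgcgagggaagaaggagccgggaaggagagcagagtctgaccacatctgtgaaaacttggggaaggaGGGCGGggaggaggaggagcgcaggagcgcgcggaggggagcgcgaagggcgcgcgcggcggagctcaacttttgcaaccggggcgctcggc
The GC box was found 2 times before Gli3, 1 time before Gli2 and 0 times before Smo. Of the 6 windows, 5 held at least 1, including Ptch1, Hhip and Gas1, against 32.7% of 32851 promoter windows of the same length. The 6 windows were 58.8% (Gas1) to 78.4% (Ptch1) G and C, and the share over all windows was not matched for this. The Gli core CCACCCA, searched on both strands, can share only end letters with the GC box. It was in 0 of the 6 windows and in 8.11% of all windows. These matches describe letters in the windows and not binding.

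The transducer Smo, the co-receptor Boc and the transcription factor Gli3 were higher in DCKO bulbs, and the output genes Gli1 and Ptch1 showed no called change. Smo, Boc and Gli3 rose, by 1.69-fold, 1.61-fold and 2.07-fold in mean FPKM (fragments scaled by transcript length and by the number of mapped fragments). Ptch1, Gas1, Gli1 and Gli2 did not pass the test, and Shh and Hhip lay below the filter on low values. In the limma test on log2(FPKM + 1), 3 of 7 tested members rose and 0 fell at a Benjamini-Hochberg adjusted p below 0.05 over all genes. Of all 13434 tested genes, 13.0% rose and 14.3% fell by the same rule. At an unadjusted limma p below 0.05, 4 members were higher, Gli2 being the fourth, and 0 were lower, beside 20.8% higher and 22.3% lower of all tested genes. The median log2 change was 0.42 over the 7 tested members and -0.02 over all tested genes. A mean of 1 FPKM over the 4 libraries was required for testing, and Gli1 and Gli3, with control means under 1 FPKM, passed this filter through their DCKO values. The count and the median are therefore descriptions. With no filter all 9 members were tested, and Smo (limma adjusted p = 0.0302) and Gli3 (0.0358) rose while Boc (0.0540) did not pass, against 6.06% of 19592 genes called higher. With 2 libraries against 2, an exact permutation test of 1 gene can reach 0.333 at the lowest.

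**Figure D1:**
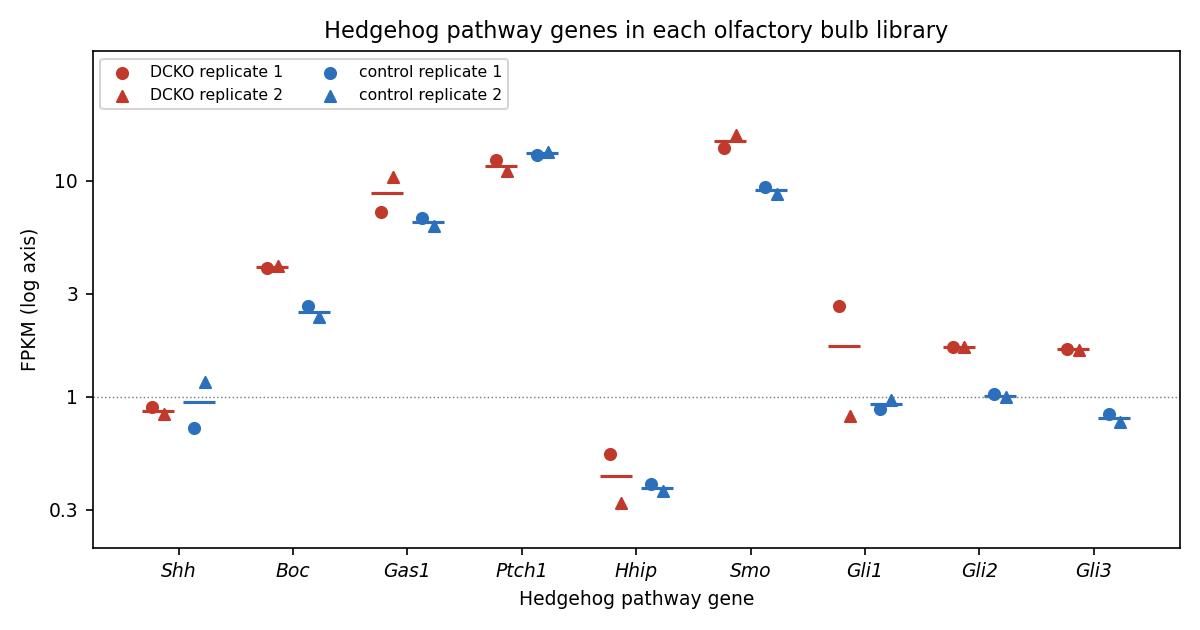
FPKM of the 9 hedgehog pathway genes in each library (log axis), with DCKO in red left of control in blue, circles for replicate 1, triangles for replicate 2 and a bar at each group mean. The dotted line is the filter at 1 FPKM; DCKO points lie above both controls for Boc, Gas1, Smo, Gli2 and Gli3, and the DCKO points of Gli1 stand far apart at 2.63 and 0.815 FPKM.

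The deposited scaled fragment counts summed to between 14632502 and 15400982 per library. As a check of the genotype labels, Sp8 stood at 1.68 and 2.03 FPKM in DCKO against 32.0 and 26.7 FPKM in controls, and Sp9 at 0.0674 and 0.236 FPKM in DCKO against 24.0 and 30.7 FPKM in controls. The tissue label was met by projection neuron genes of the bulb such as Slc17a7 and Cdhr1, present in every library. Control replicate 1 stood apart: its 6 markers listed for olfactory epithelium summed to 231 FPKM. The sums were 40.6 and 25.5 FPKM in DCKO replicates 1 and 2 and 25.0 FPKM in control replicate 2. In control replicate 1 the list held Omp at 98.4 FPKM and Bpifa1, which is not particular to that epithelium, at 68.3 FPKM. The bone and cartilage markers of control replicate 1 summed to 40.2 FPKM, against 13.8 and 18.3 FPKM in DCKO and 11.0 FPKM in control replicate 2. Its meningeal fibroblast markers summed to 307 FPKM, against 175 and 227 FPKM in DCKO and 94.9 FPKM in control replicate 2. The members differed less between the controls: the ratio of control replicate 1 to control replicate 2 was 0.611 for Shh and ranged from 0.911 to 1.13 for the other 8. Without control replicate 1, Smo was the 1 member called, and Boc (log2 change 0.59, limma adjusted p = 0.0597) and Gli3 (0.59, adjusted p = 0.0723) did not pass.

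The ligand was scarce in both genotypes. Shh (chromosome 5, 28456815 to 28467256, GRCm38, - strand) had 0.893 and 0.831 FPKM in DCKO against 0.717 and 1.17 FPKM in controls. The DCKO values fell between the 2 controls. These values rest on 29.2 to 48.2 scaled fragments per library, and no difference was detected (log2 change -0.05, 95% confidence interval -0.45 to 0.35, limma adjusted p = 0.820 with no filter). Markers of the septum and ventral forebrain, where Shh-expressing neurons are known, summed to at most 0.133 FPKM in any library, and Chat was at 0 in all 4.

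Among the proteins that receive the ligand, Boc was the 1 called. Boc (chromosome 16, 44485049 to 44558897, - strand), a co-receptor of the immunoglobulin superfamily, stood at 3.97 and 4.05 FPKM in DCKO against 2.63 and 2.33 FPKM in controls. Both DCKO libraries lay above both controls. Boc averaged 4.01 ± 0.0581 FPKM in DCKO and 2.48 ± 0.212 FPKM in controls (SD, n = 2 each), a log2 change of 0.53 (SE 0.10, 95% confidence interval 0.26 to 0.80, limma adjusted p = 0.0253). The call was lost when any 1 of the 4 libraries was left out, with adjusted p of 0.0597 to 0.118 and log2 changes of 0.46 to 0.59.

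Gas1 (chromosome 13, 60174405 to 60177365, - strand) encodes a membrane-anchored co-receptor. It stood at 7.13 and 10.4 FPKM in DCKO against 6.76 and 6.20 FPKM in controls. The groups did not overlap, but DCKO replicate 1 lay close to the controls and DCKO replicate 2 well above them. Its log2 change of 0.37 (SE 0.18, interval -0.09 to 0.83 at 95% confidence) did not pass the test (limma adjusted p = 0.178). Without DCKO replicate 1 it was 0.61 and passed (adjusted p = 0.0357), and without DCKO replicate 2 it was 0.12 and did not.

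Ptch1 (chromosome 13, 63508328 to 63573598, - strand), the receptor and a target of the pathway, had the highest control level of the 9. It stood at 12.5 and 11.1 FPKM in DCKO against 13.2 and 13.6 FPKM in controls. Both DCKO libraries lay below both controls, by little. The means were 11.8 ± 1.0 FPKM in DCKO and 13.4 ± 0.299 FPKM in controls (SD, n = 2 each), and the log2 change of -0.18 did not pass the test (SE 0.09, 95% confidence interval -0.40 to 0.04, limma adjusted p = 0.180). It rested on 788 to 972 scaled fragments per library.

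Hhip (chromosome 8, 79965851 to 80058006, - strand), a membrane protein that binds hedgehog ligands and keeps them from Patched, was the lowest of the 9 per length. It stood at 0.542 and 0.321 FPKM in DCKO against 0.393 and 0.366 FPKM in controls. The groups overlapped, with DCKO replicate 1 the highest and DCKO replicate 2 the lowest of the 4. Its log2 change with no filter was 0.05 (95% confidence interval -0.22 to 0.32, limma adjusted p = 0.749).

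Smo, which carries the signal across the membrane, had the largest change of the tested members on the log2(FPKM + 1) scale. Smo (chromosome 6, 29735503 to 29761365, + strand) stood at 14.1 and 16.4 FPKM in DCKO against 9.39 and 8.66 FPKM in controls. Each DCKO library exceeded each control. Smo averaged 15.2 ± 1.58 FPKM in DCKO and 9.02 ± 0.516 FPKM in controls (SD, n = 2 each), a log2 change of 0.69 (SE 0.10, 95% confidence interval 0.44 to 0.95, limma adjusted p = 0.0117). The call held under all 14 alternatives run, with log2 changes of 0.59 to 0.81. The ratio of Smo to Ptch1 in FPKM was 1.13 and 1.48 in DCKO against 0.712 and 0.636 in controls. Smo was thus the higher of the pair in both DCKO libraries and Ptch1 in both controls (exact two-sided permutation test of the log ratio, p = 0.333, the smallest that 2 against 2 allows). Other ratios taken between members did not separate the groups. Gli3 to Gli1 was 0.633 and 2.03 in DCKO against 0.946 and 0.797 in controls. Gas1 to Boc was 1.80 and 2.58 in DCKO against 2.57 and 2.66 in controls. The 3 other tested genes whose log2(FPKM + 1) values over the 4 libraries lay nearest those of Smo were Vstm4, Pdlim5 and Dab2, with root mean square differences of 0.05, 0.08 and 0.08.

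The Gli factors stood at similar low levels and differed in how their libraries spread. Gli3 (chromosome 13, 15463235 to 15730026, + strand), mainly a repressor when the pathway is off, stood at 1.66 and 1.65 FPKM in DCKO against 0.832 and 0.769 FPKM in controls. The DCKO libraries were near each other and above both controls. Gli3 averaged 1.66 ± 0.00717 FPKM in DCKO and 0.800 ± 0.0448 FPKM in controls (SD, n = 2 each), with a log2 change of 0.56 (SE 0.13, 95% confidence interval 0.21 to 0.91, limma adjusted p = 0.0389). The log2(FPKM + 1) scale understates this change, which was 0.97 with a pseudocount of 0.1. The call was lost without any 1 of the 4 libraries (adjusted p 0.0723 to 0.105) and with quantile normalization (0.0532).

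Gli2 (chromosome 1, 118834132 to 119053619, - strand), mainly an activator, stood at 1.69 and 1.70 FPKM in DCKO against 1.03 and 0.996 FPKM in controls. These groups did not overlap either, and the ratio of means was 1.68. The log2 change of 0.42 (SE 0.13, 95% confidence interval 0.09 to 0.76) missed the threshold (limma adjusted p = 0.0682). It passed under 3 of the 13 alternatives run for it. These were median centring (0.48, limma adjusted p = 0.0481), no variance trend (adjusted p = 0.0219) and the scaled counts (0.74, adjusted p = 0.0144). With quantile normalization (adjusted p = 0.114) and the replicate block (0.146) it did not pass.

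Gli1 (chromosome 10, 127329882 to 127341974, - strand), an activator and target of the pathway, was discordant between the DCKO libraries. It stood at 2.63 and 0.815 FPKM in DCKO against 0.879 and 0.965 FPKM in controls. DCKO replicate 1 was the highest of the 4 libraries and DCKO replicate 2 the lowest. Its log2 change of 0.42 did not pass the test (SE 0.35, interval -0.48 to 1.31 at 95% confidence, limma adjusted p = 0.397). It was 0.92 without DCKO replicate 2 (adjusted p = 0.0344) and -0.08 without DCKO replicate 1, so the direction rests on 1 library. Of 1241 tested genes with a mean of 1 to 2 FPKM, 17 (1.37%), Gli1 among them, had a ratio of DCKO replicate 1 to DCKO replicate 2 at least as high as the 3.22 of Gli1. The same ratio was 1.69 for Hhip and 1.13 for Ptch1, and 1.71 for the summed oligodendrocyte lineage markers, at 1094 FPKM in DCKO replicate 1 and 640.2 FPKM in DCKO replicate 2 (653 and 862 FPKM in controls). The part of these cells in the Gli1 values was not tested. Gli1 shares its locus with the antisense gene Gm47200 and, over a short stretch, with Arhgap9. Shh shares its locus with 9530036O11Rik and Gm26894, Gli3 with Gm6556 and Gas1 with Gm48488. All of these lie on the other strand, as do Mir6346 at Gli2 and Gm27820 at Hhip. Reads of such overlapping genes cannot be told apart where the strand setting is not given. On the same strand, Smo overlaps the pseudogene Gm13717, Gli3 the pseudogene Gm48343, Ptch1 the gene A930032L01Rik and Boc the microRNA gene Mir3081. Strand would not separate reads of these, and they have no values here.

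**Figure D2:**
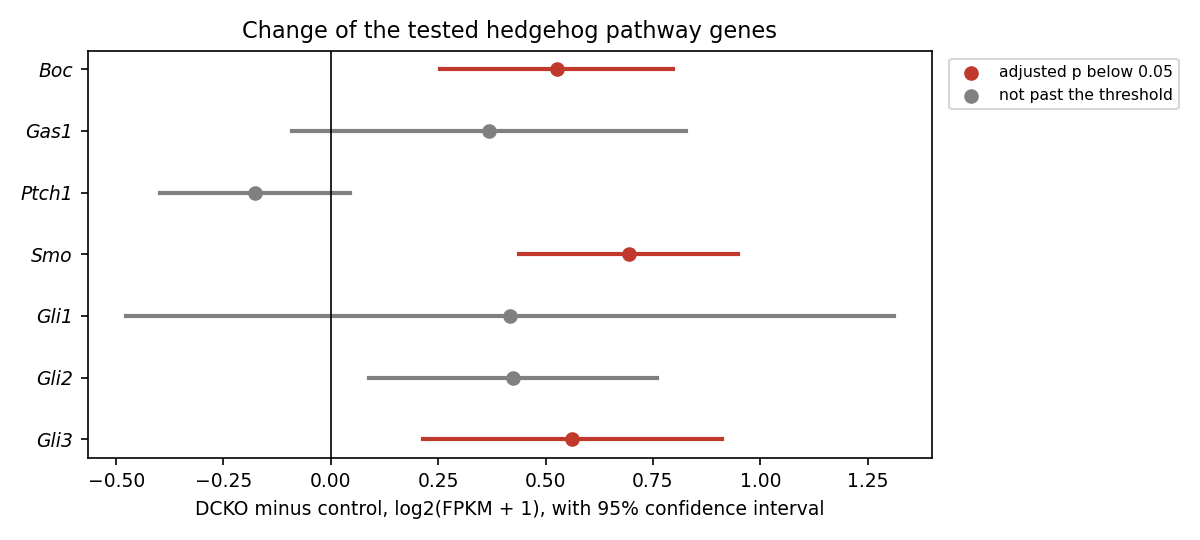
Difference between DCKO and control in log2(FPKM + 1) for the 7 tested hedgehog pathway genes, as points with 95% confidence intervals from limma, red where the adjusted p was below 0.05. Boc (0.53), Smo (0.69) and Gli3 (0.56) lie right of 0 with their intervals, Gli2 (0.42) does too without passing the adjusted threshold, and the interval of Gli1 runs from -0.48 to 1.31.

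Per length, the order of the 9 genes was similar in both genotypes. In DCKO the order by mean FPKM was Smo, Ptch1, Gas1, Boc, Gli1, Gli2, Gli3, Shh and Hhip. In controls it was Ptch1, Smo, Gas1, Boc, Gli2, Shh, Gli1, Gli3 and Hhip. Libraries of neighbours in this order overlapped between Gli1 and Gli2 in DCKO, and between Gli2 and Shh and between Shh and Gli1 in controls. Gli2 and Gli3 in DCKO were separated by only 0.0296 FPKM between their nearest libraries. Both DCKO libraries exceeded both controls for 5 of the 9 members, all of them among the 7 tested, beside 33.9% of all tested genes. One of the 5, Gli3, passed the filter through its DCKO values, so the count is a description.

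Genes of several cell types were higher in the same DCKO libraries as Smo, Boc and Gli3. In whole-bulb RNA a change in the number of cells of a type and a change in RNA per cell cannot be told apart. FPKM is scaled by the mapped fragments of a library, so a lower share of 1 cell type's RNA raises the share of the rest. The part of this in the higher values was not tested. The counts of markers that follow stand beside the 13.0% of all tested genes that rose and the 14.3% that fell. Of 10 astrocyte markers, 6 rose and 0 fell, and their sum was 1340.3 and 1157 FPKM in DCKO against 731 and 742 FPKM in controls, with Slc1a3 and Aldoc the highest. Aldoc was not called, and its values overlapped between the groups. Single astrocyte markers ran from 1.05-fold to 3.77-fold in mean FPKM. The mean astrocyte sum in DCKO was 1.70-fold that in controls. Among the other marker lists this fold ran from 0.258 for olfactory epithelium to 1.96 for mitral and tufted cells. It was 1.78 for dividing cells, 1.52 for olfactory ensheathing cells and 0.376 for interneurons. Of 6 neural stem and progenitor markers, 3 rose, and their sum was 110.5 and 138 FPKM in DCKO against 83.6 and 86.3 FPKM in controls. Of 6 markers of dividing cells, 5 rose, with sums of 44.6 and 67.8 FPKM in DCKO against 32.1 and 31.2 FPKM in controls. Olfactory ensheathing cell markers, led by Fabp7, rose for 4 of 5 genes, with sums of 2959 and 3603 FPKM in DCKO against 2134 and 2174 FPKM in controls. These sums were mainly Fabp7, at 2387 and 2919 FPKM in DCKO and 1752 and 1782 FPKM in controls. All 7 mitral and tufted cell markers rose, with sums of 1614 and 1442 FPKM in DCKO against 745 and 811 FPKM in controls. Interneuron markers fell for 9 of 10 genes, with sums of 411 and 446 FPKM in DCKO against 1149.9 and 1130.5 FPKM in controls. Microglia markers rose for 4 of 6 genes (101 and 108 FPKM in DCKO, 71.7 and 71.8 FPKM in controls), and endothelial and mural markers for 2 of 6 (191 and 200.5 FPKM in DCKO, 167 and 157 FPKM in controls). Of 9 oligodendrocyte lineage markers 0 were called by limma, and 1 was higher at an unadjusted limma p below 0.05, where 20.8% of all tested genes were. Of the 6 meningeal fibroblast markers 1 rose, near the share over all tested genes. Of 6 tested bone and cartilage markers 2 rose, and of 5 tested olfactory epithelium markers 0 were called (0 unadjusted). The part of these cell types in the changes of Smo, Boc and Gli3 was not tested.

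**Figure D3:**
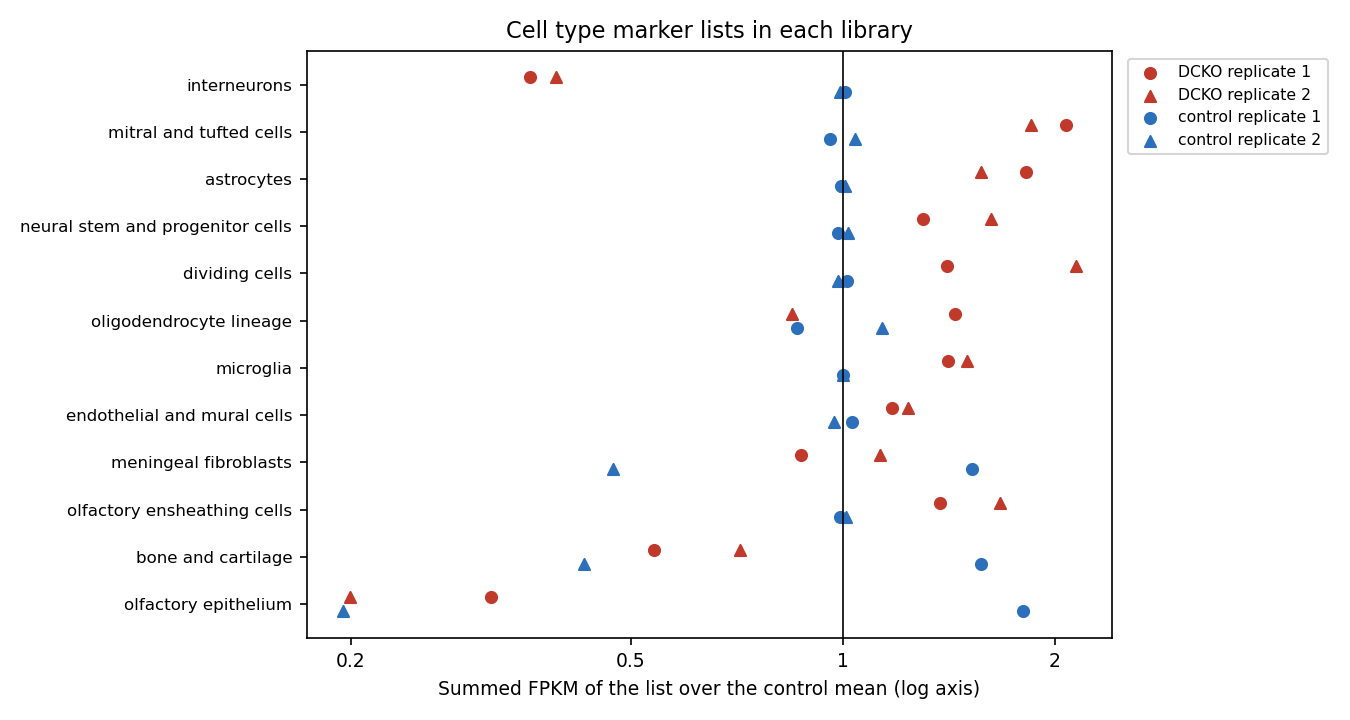
Summed FPKM of each cell type marker list in each library, divided by the mean of the 2 controls (log axis), with DCKO in red above control in blue, circles for replicate 1 and triangles for replicate 2. Astrocyte sums lie at 1.82 and 1.57 times the control mean in DCKO, interneuron sums at 0.360 and 0.391 times, and control replicate 1 stands at 1.80 times that mean for olfactory epithelium.

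The other genes of the pathway were counted in 5 lists by role, 64 different genes in all, and the counts are read against the 13.0% of all tested genes that rose and the 14.3% that fell. The median log2 change was -0.03 for ligands, 0.29 for reception, -0.04 for transduction, -0.11 for the cilium and 0.33 for reported targets, beside -0.02 over all tested genes. Among ligands and genes of ligand release, 1 of 6 tested rose, near the share over all tested genes, and 0 fell. The gene was Dhh, Desert hedgehog, a ligand known from Schwann cells and gonads, at 3.28 and 1.73 FPKM in DCKO against 0.603 and 0.478 FPKM in controls. With a control mean of 0.540 FPKM, it passed the filter through its DCKO values. Its DCKO values were several times the controls and differed from each other (log2 change 1.15, SE 0.25, limma adjusted p = 0.0301). The call was lost without DCKO replicate 1 (0.83, adjusted p = 0.0572) and with no filter (adjusted p = 0.0611). The ratio of Dhh to Shh in FPKM was 3.67 and 2.08 in DCKO against 0.841 and 0.407 in controls. Dhh was thus the higher ligand per length in both DCKO libraries and Shh in both controls (exact two-sided permutation test of the log ratio, p = 0.333, the smallest possible). Both genes were scarce: Dhh rested on 94.8 and 49.9 scaled fragments in DCKO and 17.1 and 13.5 in controls, and Shh on 29.2 to 48.2 per library. Ihh, Indian hedgehog, stayed at or below 0.157 FPKM in every library. Disp1 and the Scube genes, which free the lipid-bound ligand from the cell that makes it, did not pass the test. Neither did Disp2, the paralog of Disp1.

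Of the other reception genes, 0 of 4 tested were called by limma (2 higher at an unadjusted p below 0.05, where 20.8% of all tested genes were). Cdon, the paralog of Boc, stood at 3.56 and 3.64 FPKM in DCKO against 3.05 and 2.79 FPKM in controls and did not pass (log2 change 0.23, limma adjusted p = 0.147). Gpc5, a proteoglycan (log2 change 0.35, adjusted p = 0.0562), passed when the filter was raised to 5 FPKM (adjusted p = 0.0495) and under median centring (0.0405), quantile normalization (0.0438) and upper quartile scaling (0.0446). It did not pass under the other alternatives run, such as no filter (0.0975) and the replicate block (0.0620). Lrp2 lay below the filter with its highest value, 0.442 FPKM, in control replicate 1.

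Of 22 genes that carry the signal from Smoothened to Gli, 1 rose and 3 fell, shares no higher than those over all tested genes (13.0% and 14.3%). Evc, a ciliary protein that binds Smoothened, stood at 5.85 and 5.73 FPKM in DCKO against 3.77 and 3.43 FPKM in controls (log2 change 0.56, limma adjusted p = 0.0158). Its partner Evc2 did not pass (0.12). Btrc, a ubiquitin ligase subunit that takes part in Gli processing, fell (-0.54, adjusted p = 0.0121), as did the ubiquitin ligase Mgrn1 (-0.39, adjusted p = 0.0167) and the kinase Csnk1a1 (-0.25, adjusted p = 0.0464). The call of Evc was lost without DCKO replicate 1 (adjusted p = 0.0517) or control replicate 2 (0.0823), and that of Mgrn1 without control replicate 1 (0.0502) or 2 (0.104). Csnk1a1 lost its call under 9 of the 14 alternatives, with adjusted p of 0.0592 with no filter to 0.259 without control replicate 2. Sufu, which binds and restrains the Gli factors, stood at 6.49 and 6.94 FPKM in DCKO against 7.61 and 7.84 FPKM in controls and did not pass (-0.18, adjusted p = 0.159).

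Of 16 genes of the primary cilium, where the pathway is relayed, 3 fell and 0 rose, a share that is near the 14.3% of all tested genes that fell. Tctn1, a protein of the ciliary transition zone, fell most (5.27 and 5.06 FPKM in DCKO against 9.88 and 8.71 FPKM in controls, log2 change -0.74, limma adjusted p = 0.00882). The intraflagellar transport genes Ift172 (-0.39, adjusted p = 0.0235) and Ift122 (-0.37, adjusted p = 0.0384) fell too. Both of these calls were lost without DCKO replicate 1 (adjusted p = 0.0608 and 0.0910), control replicate 1 (0.145 and 0.195) or control replicate 2 (0.0936 and 0.115). Ift122 also lost its call with no filter (0.0686) and on the scaled counts (0.0540). The call of Tctn1 was kept under all 14 alternatives. The motor subunit Kif3a (-0.07) and the transport gene Ift88 (-0.07) did not pass.

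Of 13 tested genes reported elsewhere as hedgehog targets, 5 rose and 1 fell, beside 13.0% and 14.3% of all tested genes. The D-type cyclins Ccnd2 (29.1 and 44.0 FPKM in DCKO against 16.8 and 16.2 FPKM in controls, log2 change 1.07) and Ccnd1 (0.70) rose. So did the mitotic transcription factor Foxm1 (0.96), the survival gene Bcl2 (0.79) and the secreted Wnt antagonist Sfrp1 (0.72), with limma adjusted p of 0.00616 to 0.0302. Mycn, a growth-promoting transcription factor, fell (5.60 and 6.20 FPKM in DCKO against 9.95 and 11.2 FPKM in controls, -0.74, adjusted p = 0.00930). These genes have many other regulators, and 5 of 6 markers of dividing cells rose in the same libraries. The part of dividing cells was not tested. With no filter the calls of Ccnd2 (adjusted p = 0.0510) and Sfrp1 (0.0674) were lost and 3 of the reported targets rose. The call of Sfrp1 was also lost without DCKO replicate 2 (adjusted p = 0.0609) or control replicate 2 (0.0749).

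**Figure D4:**
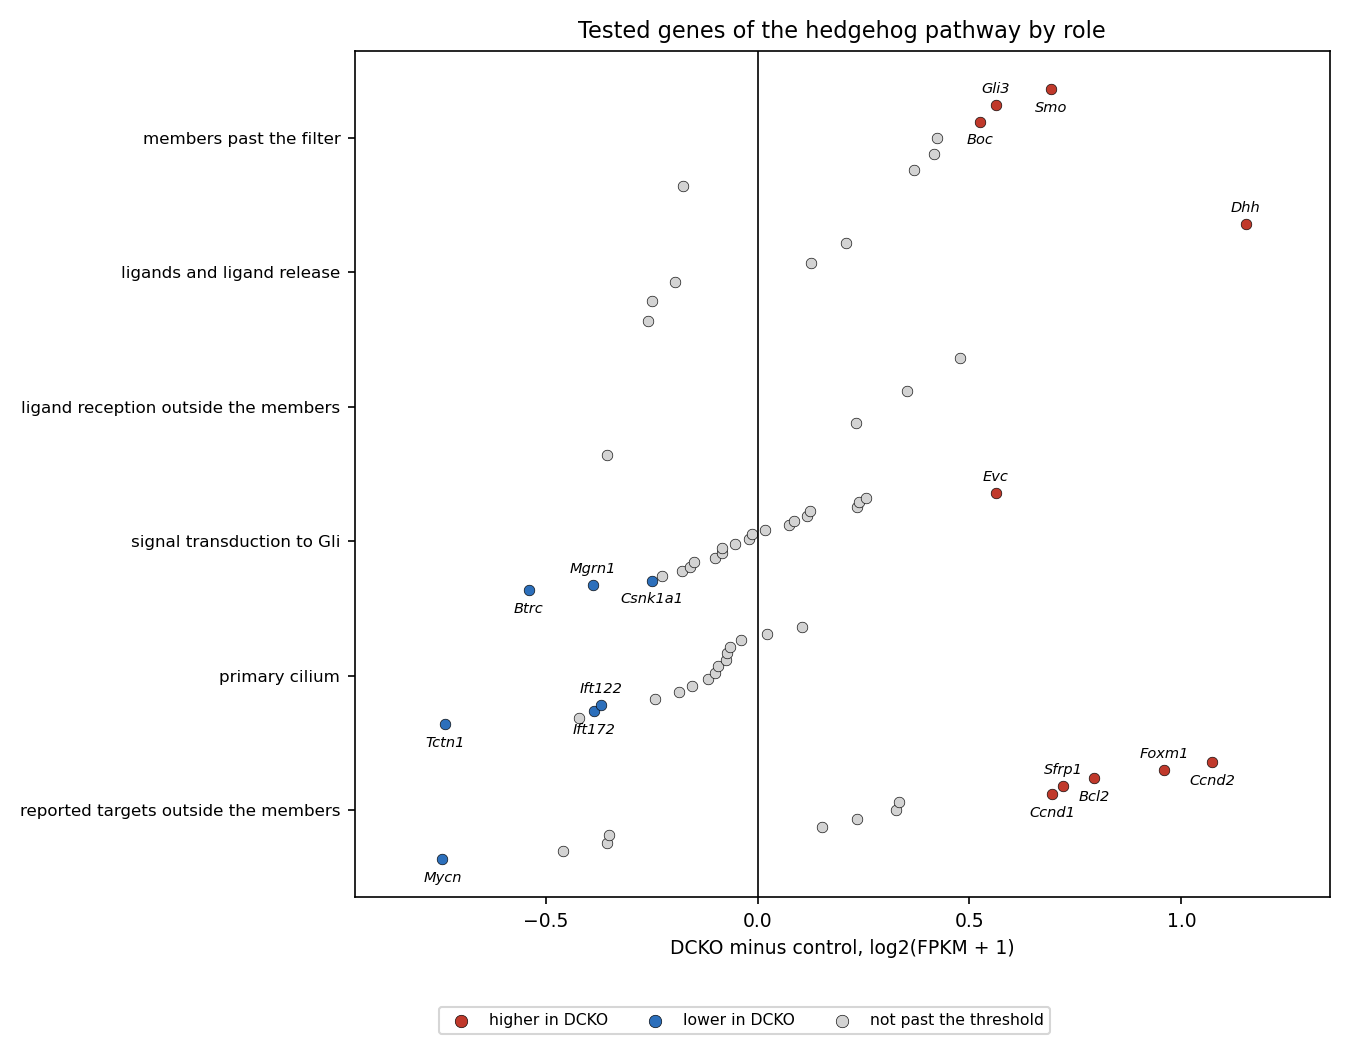
Difference between DCKO and control in log2(FPKM + 1) for the tested members and for the 5 lists of other pathway genes, 1 point per gene, named where the adjusted p was below 0.05. Dhh lies farthest right at 1.15, Mycn and Tctn1 farthest left at -0.74 each, and the genes of signal transduction and the cilium gather near 0.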

How the data were processed

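TopHat, with no version given, Cufflinks 2.1.1 and the build GRCm38.p4 are named in the submitters' processing notes. Neither the annotation nor the use of strand is given in the sources used here. All deposited FPKM values were made by the authors, per the file headers. The columns headed count are not whole numbers and were taken as a signal that the authors scaled by 1 factor per library, so no count model was used. Columns were matched to samples by the codes in the sample descriptions, and 0 columns were left unmapped.

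Values were taken as log2(FPKM + 1), and DCKO was compared with control by limma (3.58.1, R 4.3.3), two-sided and with an intensity trend, over the 13434 genes whose mean reached 1 FPKM. The threshold was a Benjamini-Hochberg adjusted p below 0.05. The fit was tested on simulated data. Coordinates came from GENCODE M21 (GRCm38). The members and lists were chosen with earlier results of these data known.

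All members are named, with Sp8 and Sp9, up to 6 called genes per pathway list by size of change, up to 2 genes of highest mean per marker list and any at 0 throughout, and the 3 genes nearest the member of largest change. Chosen after their values were seen were Ihh, Disp1, Disp2, Scube genes, Cdon, Gpc5, Lrp2, Evc2, Sufu, Kif3a and Ift88.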

Additional observations from a re-analysis of the deposited data

How the results depend on the processing

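Alternatives covered the pseudocount, the filter, the scaling, the trend of the variance, blocking by replicate number, leaving out each library and scaled counts. Smo kept its call under each of the 14 run for it, and Ptch1 passed in 0 of 14. The count of 3 members higher was 1 when the filter required 5 FPKM, where only Smo, Ptch1 and Gas1 were tested, and 1 with the replicate block; it was 2 with no filter or quantile normalization, and 4 with median centring, no variance trend or scaled counts. It ranged from 1 to 2 with a library left out. Without DCKO replicate 1 the members called were Smo and Gas1, without DCKO replicate 2 Smo and Gli1, and without either control Smo. The log2 change of Gli1 was 0.92 without DCKO replicate 2 and turned to -0.0824 without DCKO replicate 1. No member was called lower under any alternative. Over all genes, 806 to 1384 rose and 1030 to 1875 fell with a library left out, against 1747 and 1926 with all 4; where 1 library remained in a group it was assumed to vary like the other group. With median centring 58.5% of all calls were higher, against 47.6%.

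Same-numbered libraries did not deviate together (correlation -0.02), so the numbers were not taken as pairs; the block lost the calls of Boc (adjusted p = 0.0544) and Gli3 (0.0920), and among the other named genes those of Csnk1a1 (0.0927), Ift172 (0.0506) and Ift122 (0.0729). The planned edgeR test was not run because the count columns hold no whole counts. Shh, Gli1 and Hhip rested on 29.2 to 135 scaled fragments per library; the part of depth in their spread was not tested.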
